A study of Rattus norvegicus with 3 samples.

Results

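Erythroid cells caught in single-cell libraries of the embryonic rat cerebral cortex were chosen by their haemoglobin content. A barcode counted as an erythroid cell when it held at least 500 unique molecular identifiers (UMIs, which count captured transcript molecules) and at least 50% of them came from 12 haemoglobin genes. No filter on detected genes or mitochondrial content was applied. The rule gave 320 cells of 20744 barcodes, 35 of 7100 in the library labelled E14, 217 of 6707 in the library labelled E16 and 68 of 6937 in the library labelled E18. Because the rule reads haemoglobin, the haemoglobin share of these cells is a description and not a finding.

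The libraries come from wildtype Rattus norvegicus cortex at embryonic days 14, 16 and 18, with freshly prepared primary cells freed by papain and washed, and with no other treatment named. Each label has 1 library, and the labels do not say how many embryos were pooled. No comparison therefore has a replicate check and no p-value is given. Cells of 1 library are not replicates of an age, and the intervals below are exact 95% intervals for counting error only. Part of the labels' protocol text describes multiplexed, sorted human cells in culture, which does not match primary rat cortex, so which of those steps were applied here is unknown.

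Red cells of the embryo are made in waves. Primitive erythroid cells arise in the yolk sac, enter the blood while still nucleated and carry haemoglobin of embryonic chains, the alpha-like zeta chain and the beta-like epsilon and gamma chains. Definitive erythroid cells arise later, mainly in the fetal liver, use adult alpha and beta chains and lose the nucleus before they circulate. As both kinds mature they shut down most genes, stop dividing and keep transcripts for globin, haem synthesis and the membrane skeleton.

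In the gene set of the deposited files the alpha-like genes are Hbz (zeta), Hba-a1, Hba-a2 and Hba-a3 (adult alpha) and Hbq1b (theta). The beta-like genes are Hbe1, Hbe2 and Hbg1 (embryonic) and Hbb, Hbb-bs, Hbb-b1 and Hbb-b2 (adult). Hbe1 and Hbz carried most of the embryonic signal, and Hba-a1, Hba-a2, Hbb and Hbb-bs most of the adult signal. The 120 bases before the start of these 6 genes, from RefSeq on build GRCr8, are shown 5′ to 3′ because these genes carried most globin UMIs. Capitals mark the CACCC box, the CCAAT box, the GATA motif and the ATAAA form of the TATA box, found on either strand.
Hbz (chr10:15849758-15849877, minus strand): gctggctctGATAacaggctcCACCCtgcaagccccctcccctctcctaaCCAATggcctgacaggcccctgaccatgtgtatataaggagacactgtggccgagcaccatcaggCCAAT
Hba-a1 (chr10:15842581-15842700, minus strand): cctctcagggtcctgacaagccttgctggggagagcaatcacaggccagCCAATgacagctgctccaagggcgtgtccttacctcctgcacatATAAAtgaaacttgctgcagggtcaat
Hba-a2 (chr10:15829139-15829258, minus strand): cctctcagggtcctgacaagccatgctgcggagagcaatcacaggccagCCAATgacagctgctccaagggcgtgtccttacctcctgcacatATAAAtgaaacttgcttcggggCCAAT
Hbe1 (chr1:167696281-167696400, minus strand): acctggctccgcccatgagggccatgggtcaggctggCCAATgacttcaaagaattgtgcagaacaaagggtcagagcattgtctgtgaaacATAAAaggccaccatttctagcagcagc
Hbb (chr1:167663722-167663841, minus strand): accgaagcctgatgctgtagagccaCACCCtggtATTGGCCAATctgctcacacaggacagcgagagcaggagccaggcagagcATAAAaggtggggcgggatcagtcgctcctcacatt
Hbb-bs (chr1:167631631-167631750, minus strand): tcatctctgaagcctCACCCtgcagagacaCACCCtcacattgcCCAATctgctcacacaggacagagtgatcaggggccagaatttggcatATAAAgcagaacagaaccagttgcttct

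All 6 stretches held CCAAT, which 19.9% of 33469 RefSeq promoter windows of the same length held. It began 70 to 86 bases before the start in each of them, with a further match 5 bases before the start of Hbz and Hba-a2. In Hbb, matches on opposite strands lie side by side. CACCC (29.5% of windows) was present in Hbz, Hbb and Hbb-bs, GATA (31.4% of windows) in Hbz, and ATAAA (21.5% of windows) 27 to 36 bases before the start of the other genes. The Hba-a1 and Hba-a2 stretches were identical at 115 of 120 bases. Other pairs matched at 22 to 38 bases when compared position by position, without gaps or shifts. That count misses likeness at shifted positions. Hbb and Hbb-bs, with 25 matches, share an unbroken run that begins at CCAAT, 81 and 76 bases before the start.

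The 3 libraries hold 62740631, 80974234 and 73727823 UMIs in label order. Erythroid cells made up 0.493% of the E14 barcodes (interval 0.344% to 0.685%), 3.24% in E16 (2.82% to 3.69%) and 0.980% in E18 (0.762% to 1.24%). They held 92.3%, 95.6% and 95.1% of all haemoglobin UMIs. The libraries shared 12 to 17 barcode sequences per pair, and no barcode was an erythroid cell in both libraries of a pair. In a dissected tissue, the number of red cells also depends on how much blood was left in it.

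The threshold was sharp in the library labelled E14 and less so in the others. The E14 cell with the lowest haemoglobin share had 64.6%, and the highest barcode outside had 17.4%. In E16 the corresponding values were 52.7% and 49.3%, and in E18 they were 53.3% and 42.0%. The 9 E16 barcodes between 25% and 50% were deep, with a median of 45290 UMIs, and all 9 held Alas2 transcripts.

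The erythroid label was checked with marker genes that the rule did not read. Alas2, the enzyme that starts haem synthesis in red cells, Slc4a1, the band 3 anion exchanger of the membrane, and Hemgn, a nuclear protein of erythroid cells, summed to 15283, 6651 and 10255 CPM in label order, where CPM is UMIs of a gene or list per 1000000 non-globin UMIs of the same cells. Levels below are on this scale. In all other barcodes of the same libraries the sums were 2.21, 7.02 and 1.23 CPM. Alas2 alone gave 13941, 4033 and 7632 CPM in erythroid cells. When cells were thinned to 500 non-globin UMIs, Alas2 was found in 93.8% of mostly adult E14 cells, all mostly adult E18 cells, 86.1% of mostly embryonic E16 cells and 51.9% of mostly embryonic E18 cells, classes that are defined below. It was found in 0, 1 and 0 of 1000 thinned other barcodes in label order. Slc4a1 was found in 28.1%, 62.5%, 65.6% and 33.3% of thinned cells in the same order of groups. Hemgn was found in 12.5%, 28.1%, 21.1% and 14.8%. In thinned other barcodes Slc4a1 was found in 0, 2 and 0 of 1000 and Hemgn in none. Only Alas2 of these markers was thus found in most cells of each of these groups. The neural list of 20 genes, a measure of RNA from cortical cells, stood at 8752, 2624 and 2808 CPM in erythroid cells and at 29071, 12453 and 18824 in the rest. Its part in the results below was not tested.

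Cells used either embryonic or adult beta-like globin, with few in between. The embryonic share of beta-like UMIs was over 50% in 1 of 35 E14 cells (2.86%, interval 0.0723% to 14.9%), in 209 of 217 E16 cells (96.3%, 92.9% to 98.4%) and in 31 of 68 E18 cells (45.6%, 33.5% to 58.1%). The order of these shares did not follow the labelled days. Across the libraries 0, 1 and 2 cells lay between 20% and 80%. The cells over 50% are called mostly embryonic and the rest mostly adult. Within the mostly embryonic cells, the share had a median of 97.2% in E16 and 97.1% in E18. Within the mostly adult cells, it had a median of 0% in E14, 9.04% in E16 and 0.0404% in E18.

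**Figure D1:**
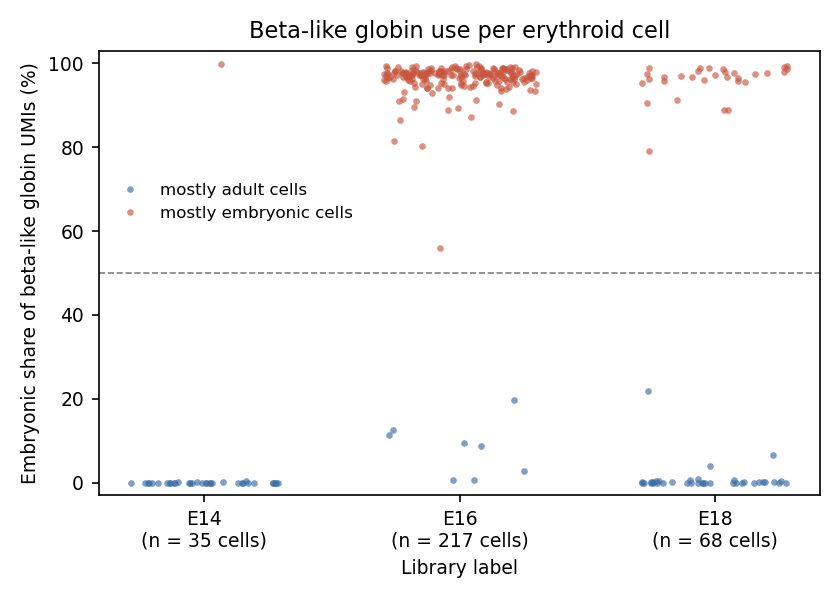
Share of beta-like globin UMIs from the embryonic genes Hbe1, Hbe2 and Hbg1 (y axis, percent) in each erythroid cell, by library label (x axis). Each point is 1 cell, the dashed line at 50% divides the classes, and only 0, 1 and 2 cells of E14, E16 and E18 lie between 20% and 80%.

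The single mostly embryonic cell of E14 was unlike those of the other libraries. It held 2681 UMIs, of which 1637 were Hbe1, with 126 of Hba-a1 and 12 of Hbz. Its alpha-like to beta-like ratio was 0.118, against medians of 0.994 and 0.967 in mostly embryonic cells of E16 and E18. It had no Alas2 or Slc4a1 UMI and 2 UMIs of Ahsp, the chaperone of free alpha chains. With 1 cell, no description of embryonic erythroid cells in that library is possible.

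The classes also differed in size and in non-globin content. Median UMIs per cell were 20496, 21113 and 21067 in mostly adult cells of E14, E16 and E18, and 30062 and 15110 in mostly embryonic cells of E16 and E18. Mostly adult cells gave a median of 90.9%, 92.4% and 92.2% of their UMIs to globin, and mostly embryonic cells 85.3% and 79.5%. Median non-globin genes were 542.5, 479.5 and 487 in mostly adult and 1111 and 604 in mostly embryonic cells. After thinning to 500 non-globin UMIs they were 254.5, 233.5, 237.5, 281 and 233, against 365, 372 and 377 in the other barcodes of E14, E16 and E18. At 1 depth, erythroid cells thus showed fewer different genes than the rest in each library.

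In mostly adult cells Hbb took 41.0%, 29.0% and 33.4% of globin UMIs in E14, E16 and E18, and Hba-a1 31.3%, 35.1% and 33.4%. Hba-a2 took 20.7%, 23.3% and 22.7%, and Hbb-bs 6.43%, 8.51% and 8.99%.

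In mostly embryonic cells Hbe1 was the leading beta-like gene, with 45.04% of all globin UMIs in E16 and 49.9% in E18. Hbg1, the gamma-type gene, took 3.43% and 0.325%. Hbe2 took 0.0118% and 0.0157%. Among the alpha-like genes Hbz took 20.8% in E16 and 4.72% in E18, and Hba-a1 took 20.9% and 31.8%. Zeta chains were thus a larger part of the alpha-like pool in E16, with 41.8% of its UMIs against 9.91% in E18. Per cell, the zeta share ran from 0.999% over a median of 38.7% to 76.5% in E16, and from 0.172% over 5.18% to 50.2% in E18. The ranges overlapped, and the median of E18 lay below the value that 90% of E16 cells exceeded, 13.4%. Mostly adult cells had next to no zeta, with shares of 0.00549%, 0.567% and 0.0302% in label order.

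Hbg1 use differed between the same cells. Its share of embryonic beta-like UMIs ran from 0.0156% over a median of 6.32% to 20.9% in E16 and from 0% over 0.364% to 8.34% in E18. The E18 cell with the highest Hbg1 share, 8.34%, was also the cell with the highest zeta share, 50.2%. Across the 209 E16 cells the zeta and Hbg1 shares went together (Spearman's rho 0.73, a description over cells of 1 library), and over the 31 E18 cells rho was 0.44.

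**Figure D2:**
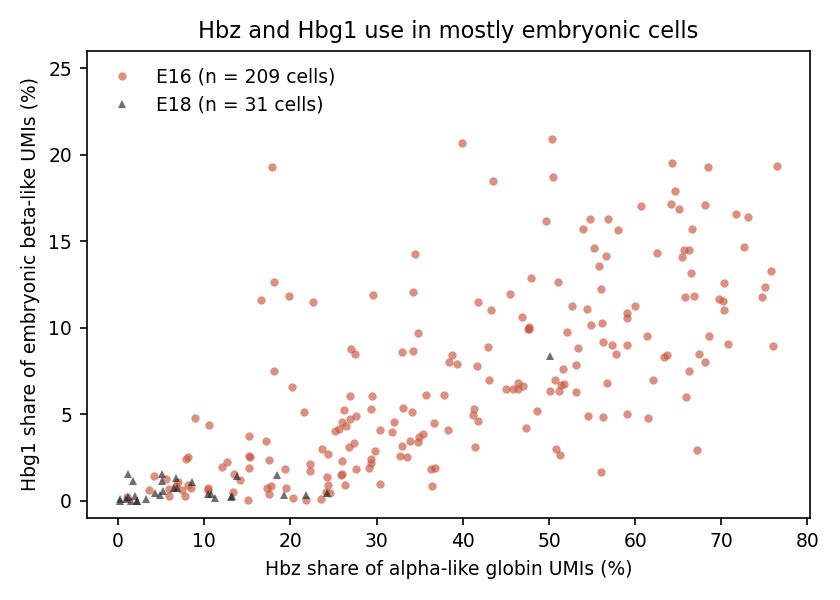
Share of alpha-like UMIs from Hbz (x axis, percent) against share of embryonic beta-like UMIs from Hbg1 (y axis, percent) in mostly embryonic cells, 1 point a cell. The 209 E16 cells (circles) spread up to 76.5% on the x axis, and most of the 31 E18 cells (triangles) lie near the origin.

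The zeta share went with other differences among mostly embryonic E16 cells. They were put in bands of zeta share that were chosen after the shares had been seen: 37 cells from 5% to 20%, 67 from 20% to 40%, 62 from 40% to 60% and 40 above 60%, with 3 cells under 5% left out for their number. Median non-globin UMIs in these bands were 3240, 4031, 4867 and 6610, and median detected non-globin genes 838, 993, 1256 and 1609. The median globin share was 87.4%, 87.0%, 84.1% and 78.9%.

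Genes of the cell cycle were higher at high zeta when all these cells were summed, but only the band above 60% stood out when at least 80% globin was required, and there 1 cell held most of the UMIs. The proliferation list summed to 1421 CPM in the band from 5% to 20% and to 1179, 2379 and 4192 in the next ones. Within it Cenpf, a kinetochore protein of dividing cells, had 32.7, 26.4, 149 and 288 CPM. Mki67, the usual marker of cycling cells, had 32.7, 3.29, 233 and 336. The lower bands did not differ beyond counting error for Cenpf, and the upper bands stood above both. Of the list's UMIs 59.8%, 14.5%, 21.2% and 14.1% were in 1 cell of each band. With at least 80% globin the list stood at 639, 680, 579 and 2401 CPM over 34, 60, 51 and 14 cells, and 67.6% of the UMIs of the top band were in 1 cell. All Cenpf UMIs of that band were then in 1 cell, and so were all Mki67 UMIs.

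The neural list was also present in all bands. It stood at 1658, 2737, 2763 and 2836 CPM, and at 799, 755, 526 and 805 with at least 80% globin. Without cells of 1% or more neural UMIs the proliferation list was 1421, 1082, 2171 and 4297. The part of neural RNA in the proliferation values was not tested.

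Ahsp stood at 6519 CPM in the lowest of these bands, 9259 in the next, and 15704 and 15208 in the upper bands. The iron store gene Fth1 (ferritin heavy chain) went the other way, at 83302, 68198, 47213 and 31107 CPM. So did Alas2, at 5204, 4582, 3843 and 2716, and Bpgm, which makes 2,3-bisphosphoglycerate, at 2892, 2905, 1857 and 1055. Mdk, the growth factor midkine, had 1748, 995, 348 and 110, with 52.4% of the UMIs of the band from 40% to 60% in 1 cell. The terminal maturation list, which holds mitophagy, nuclear clearance and ubiquitin genes, summed to 17205, 13963, 8856 and 5850. With at least 80% globin Ahsp stood at 7415, 10996, 18687 and 20483 CPM and Fth1 at 90557, 80559, 58093 and 41798, in the same order of bands. Mdk then had 1804, 1213, 74.0 and 111, so the bands above 40% no longer followed the order of zeta.

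**Figure D3:**
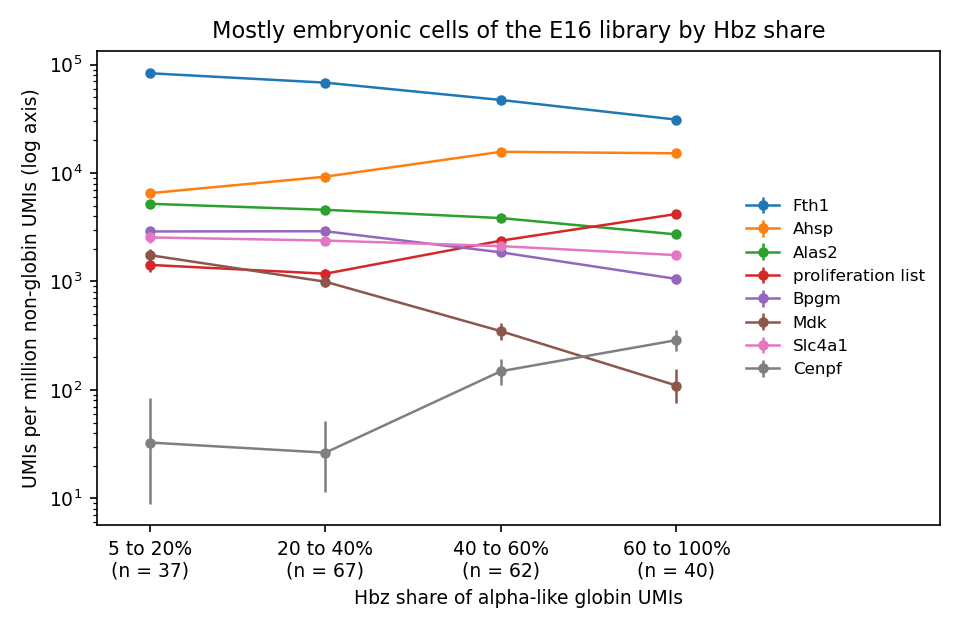
Levels in CPM of non-globin UMIs (y axis, log scale) in mostly embryonic E16 cells by band of Hbz share (x axis). Points are sums over the cells of a band and bars exact 95% Poisson intervals; Fth1 goes from 83302 to 31107 and the proliferation list from 1421 to 4192.

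Per cell, rank correlations with the zeta share over the 209 E16 cells were 0.54 for non-globin UMIs, 0.58 for Ahsp, 0.22 for the proliferation list, -0.61 for Fth1 and -0.43 for Mdk. The alpha-like to beta-like ratio had rho 0.66. All come from 1 library and share its depth. Among the 31 E18 cells the sign differed for Fth1 (0.50), Mdk (0.12) and the alpha-like to beta-like ratio (-0.61). It was the same for Ahsp (0.49) and non-globin UMIs (0.36), and the proliferation list had 0.04. The globin share, which the rule used, had -0.56 in E16 and 0.22 in E18. These few cells also vary widely in depth, from 701 to 42182 UMIs.

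The balance of alpha-like to beta-like UMIs had medians of 1.10 in mostly adult E14 cells, 1.42 in mostly adult E16 cells and 1.31 in mostly adult E18 cells. Mostly embryonic cells had 0.994 in E16 and 0.967 in E18. The highest values were 1.90 in E16 and 7.59 in E18, and the 4 highest E18 cells were shallow, with 1028 to 2946 UMIs.

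Of adult alpha UMIs, Hba-a1 gave 60.1%, 59.998% and 59.3% in mostly adult cells of E14, E16 and E18. In mostly embryonic cells it gave 72.4% in E16 and 74.1% in E18. The class was not chosen by these genes. Hba-a1 and Hba-a2 are near-identical copies, so the split depends on how reads were assigned. Hbq1b gave 0 to 109 UMIs per class and library.

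The adult beta genes were also used unequally. In mostly adult cells Hbb gave most adult beta UMIs, and Hbb-bs gave 13.4%, 22.4% and 20.8% in label order. In mostly embryonic cells, whose adult beta UMIs are few, Hbb-bs gave 76.2% in E16 and 68.1% in E18. Per cell, Hbb-bs was at least 50% of adult beta UMIs in 186 of 209 mostly embryonic E16 cells and 26 of 31 in E18. It was at least 90% in 161 and 21 of them. No mostly adult cell reached 30%. In the other barcodes of the same libraries Hbb-bs gave 20.8%, 50.3% and 30.2% of adult beta UMIs in label order, and the part of such RNA in the mostly embryonic cells was not tested. Hbb, Hbb-bs, Hbb-b1 and Hbb-b2 are close copies, and their counts are uncertain in the same way.

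**Figure D4:**
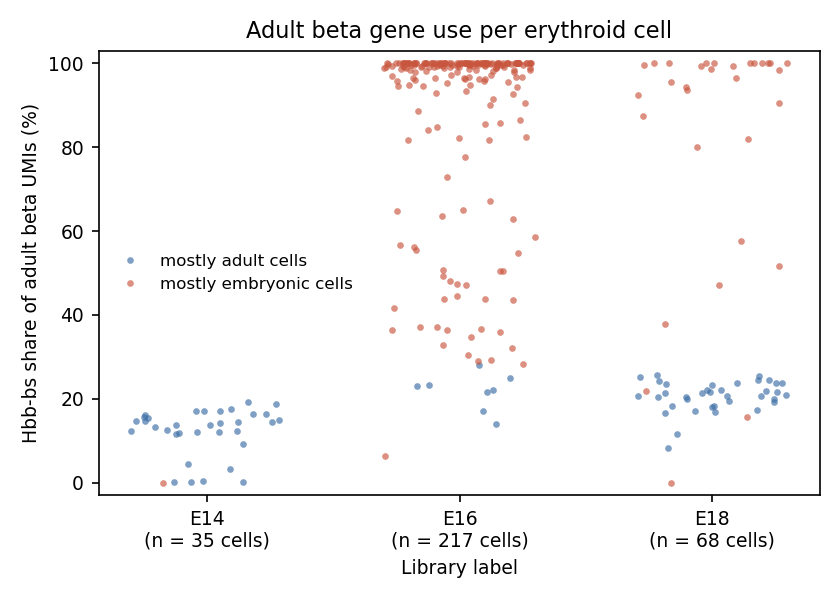
Share of adult beta UMIs (Hbb, Hbb-bs, Hbb-b1, Hbb-b2) that came from Hbb-bs (y axis, percent) in each erythroid cell, by library label (x axis). Mostly adult cells (blue) lie under 30% and 186 of 209 mostly embryonic E16 cells (red) at 50% or above.

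In 6 of the 34 mostly adult E14 cells, Hbb-bs was under 5% of adult beta UMIs, a group set apart after its values were seen. These cells held 3693 to 20829 UMIs, with a median of 310 non-globin genes against 605 in the other 28. Their alpha-like to beta-like ratio ran from 0.372 to 0.999 (median 0.749), against a median of 1.12. They held 2 Ahsp UMIs in all, and the other 28 cells held 929. Alas2 was present in all 6, with 44 UMIs. The neural list was 0.949% of their non-globin UMIs at the median, against 0.511%. No mostly adult cell of E16 or E18 was under 5%.

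A few mostly adult cells held Hbg1 without a matching amount of Hbe1. Among the 8 mostly adult E16 cells, 3 had far more Hbg1 than Hbe1, with 898 against 8 UMIs, 734 against 4 and 63 against 3. In 2 further cells the amounts were close, at 123 against 115 and 21 against 19. The other 3 had 48 against 846, 33 against 1319 and 5 against 438. The 5 cells with more Hbg1 had 6980 to 9142 adult beta UMIs each. In the other barcodes of E16, 7417 Hbg1 UMIs stood against 110374 of Hbe1. In E18, 7 of 37 mostly adult cells had at least 10 Hbg1 UMIs and more Hbg1 than Hbe1, with up to 281, and in E14 3 of 34, with up to 30. No mostly embryonic cell had more Hbg1 than Hbe1.

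Non-globin genes were compared as sums over cells. A gene was tested when it reached 50 CPM and 20 UMIs in the higher group, and called when it differed at least 2-fold after 10 CPM were added to both. Log2 ratios are on that scale.

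Against the other barcodes, 1735 of 2960 genes were called alike in E16 and E18 (58.6%), 280 higher (9.46%) and 1455 lower (49.2%) in erythroid cells. The median log2 ratio was -1.28. When each library was centred on its own median over these genes, 581 were higher and 126 lower, so which direction prevails turns on that scaling. E14 had under 50 erythroid cells and its values are given beside. The highest were Ahsp, with 12613 CPM in E16 and 14765 in E18 against 10.4 and 0.649, and Alas2, with 4033 and 7632 against 4.203 and 0.8003. Slc4a1 had 2129 and 2072 against 2.34 and 0.317. E14 erythroid cells held 12043 of Ahsp and 13941 of Alas2.

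Other high genes were less specific to the membrane or haem. Cd52, a small surface glycoprotein of blood cells, had 1613 CPM in E16 and 1634 in E18, and 1885 in E14. Car2, a carbonic anhydrase, had 1806, 3622 and 3834. Tent5c, a cytoplasmic poly(A) polymerase, had 957, 1477 and 1536. Nrtn, the ligand neurturin, had 1581, 1589 and 1162. H19, an imprinted noncoding RNA, had 2257 and 1567 in E16 and E18 and 90.4 in E14. Mt1, a metallothionein, had 7821 and 2892 against 503. Akr7a3, an aldo-keto reductase, had 925 and 803 against 25.8. LOC102551312 completed the highest 12. The cells of E14 were mostly adult and those of E16 mostly embryonic, so library and class cannot be told apart in these values.

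Lowest in E16 and E18 was Ttr, the transthyretin of choroid plexus, with 26.4 and 135 CPM in erythroid cells against 1213 and 2676 in the rest. In E14 it had no UMI in erythroid cells and 0.161 CPM in the rest. Id4, Sfrp1, Sox9, Bcl11b and Lef1, regulators of neural progenitors or neurons, had log2 ratios between -4.27 and -2.14. Top2a, a topoisomerase of dividing cells, had 120 and 11.2 against 615 and 426. Ccdc88a, H1f10 and 3 uncharacterised genes made up the rest. E14 did not always go the same way. Its log2 ratios were -4.01 for Id4, -3.75 for Top2a, -2.55 for Bcl11b, -1.89 for Ccdc88a and -1.55 for H1f10, but -0.97 for Sfrp1 and -0.59 for Sox9, both within 2-fold. Lef1 was higher in E14 erythroid cells, with 90.4 CPM against 36.3, but all 7 of its UMIs were in 1 of 35 cells.

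The classes were next compared within the E18 library, where both were well represented. This comparison was chosen after the classes had been seen. Of 656 genes tested, 356 were called (54.3%), 122 higher (18.6%) and 234 lower (35.7%) in the 31 mostly embryonic than in the 37 mostly adult cells. The median log2 ratio over all tested genes was -0.42, and when ratios were centred on it 189 were higher and 177 lower, so which direction prevails turns on that scaling. The classes had 84614 and 93447 non-globin UMIs. The neural list stood at 1702 CPM in mostly embryonic and 3810 in mostly adult cells. Mitochondrial genes summed to 31720 CPM (interval 30532 to 32944) against 64871 (63248 to 66525), with 5 of 10 tested lower, none higher and a median log2 ratio of -1.13. The part of either in the differences below was not tested.

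Erythroid markers were lower in mostly embryonic E18 cells. The list summed to 5058 CPM (interval 4590 to 5561) against 52179 (50725 to 53665). All 9 tested of the 12 listed were called lower, with a median log2 ratio of -3.30. The limit of 20 UMIs equals 236 CPM in mostly embryonic and 214 in mostly adult E18 cells. Genes such as Klf1 were therefore tested only through the mostly adult class, and the count depends on that. The same limit applies to the list counts below. Ahsp had 733 CPM (interval 562 to 939) against 27470 (26418 to 28554), which is 37.5-fold lower (29.2 to 49.0). Klf1, the transcription factor that drives adult beta globin, had 94.5 against 1017, Slc4a1 827 against 3200, and Hemgn 236 against 835. After thinning to 500 non-globin UMIs, Ahsp was found in 6 of 27 mostly embryonic and in 32 of 32 mostly adult cells, and in 0 of 1000 other barcodes. Their median non-globin depths were 2739, 1941 and 9317 UMIs.

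Haem synthesis followed the same direction, with the list at 6086 CPM (5572 to 6636) against 24249 (23261 to 25269). Of 9 tested genes 8 were lower and none higher (median -2.26). Alas2 had 2553 against 12231 CPM, a ratio of 4.79 (4.14 to 5.57). Alad, which acts early in the pathway, had 59.1 against 738 and was tested only through the mostly adult class. Fech, which inserts the iron, had 295 against 1455, and Slc25a37, the mitochondrial iron importer mitoferrin, 343 against 2023.

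The membrane skeleton list summed to 2458 CPM (2135 to 2816) against 13740 (12999 to 14513). Of its 10 tested genes 9 were lower and none higher (median -2.47). Antioxidant and protective genes included 7 of 10 lower and 1 higher, with Prdx2 (peroxiredoxin 2) at 10235 against 24581 and Gpx1 (glutathione peroxidase) at 5909 against 16202 CPM.

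Iron storage genes were the other way round. Fth1 had 96875 CPM in mostly embryonic and 35229 in mostly adult E18 cells, 2.75-fold higher (2.64 to 2.86), and Ftl1, the light chain, 5661 against 1723. Hmox1, which breaks down haem, had 22 UMIs against 0, at least 8.10-fold higher when 0 is set to 3 counts over the group. Of 5 tested iron genes 3 were higher and 2 lower. Fth1 and Ftl1 have processed copies in the genome, whose share of these counts is not known. Ribosomal protein genes had 25 of 79 tested higher and none lower (median 0.91).

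The terminal maturation list was split, with 3 of 12 tested genes higher, 2 lower and a median of 0.20. Bpgm had 1016 against 42.8 CPM (86 and 4 UMIs, ratio 23.7, interval 8.94 to 89.1). Bnip3l, which marks mitochondria for removal, had 449 against 1830. Ubb, a ubiquitin gene, had 10589 against 7823.

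The proliferation list summed to 626 CPM (53 UMIs, interval 469 to 819) in mostly embryonic and 3681 (344 UMIs, 3302 to 4092) in mostly adult E18 cells, where 52.9% of its UMIs were in 1 cell. Few of its genes reached the limits for testing, and some of those did so through that class alone, so a count of called genes is not informative here. Cenpf had 0 against 52 UMIs and Mki67 1 against 44, of which 90.4% and 77.3% were in 1 mostly adult cell each. With at least 80% haemoglobin the list stood at 540 (349 to 797) against 1725 (1412 to 2087), with 41.5% of the UMIs of the mostly adult class in 1 cell, and no Cenpf UMI was left in either class.

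Outside the lists, the largest differences marked each class. In mostly adult E18 cells, Car1, another carbonic anhydrase, had 142 UMIs in 24 of 37 cells, Lgals5, galectin-5, had 104 in 15, and Emb, embigin, had 62 in 20. All 3 had none in mostly embryonic cells, which sets them at least 42.9, 31.4 and 18.7-fold lower. Cdkn3, a phosphatase of the cell cycle, Dhrs11, a dehydrogenase, Hagh, glyoxalase II, Cdr2 and Plekhb1 were also at 0, against 26 to 42 UMIs. Tfdp2, the partner of E2F factors, had 1 UMI against 76.

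The genes highest in mostly embryonic E18 cells were LOC100361913 (76 UMIs against 0), Ackr3, an atypical chemokine receptor (53 against 0), Zfp36l2, an mRNA decay factor (41 against 0), and Csf1r, the receptor of macrophage growth factor (37 against 0). They are at least 28.0, 19.5, 15.1 and 13.6-fold higher. Mdk had 759 UMIs in 24 of 31 cells against 19 in 6 of 37, 8970 against 203 CPM. Cited2, a transcriptional coregulator, had 108 against 2 and Akr7a3 140 against 3. Igf2, the fetal growth factor, and B4galt6 had 26 against 0 each, and Trmt9b and Ifi27l2b 24 against 0. Of the Ifi27l2b UMIs 83.3% were in 1 cell. H19, chosen after its values were seen, had 2931 against 332 CPM.

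Csf1r is also a microglial gene, so its company was examined. The macrophage list of 10 genes gave 37 UMIs in mostly embryonic E18 cells, all of them Csf1r, with C1qa, C1qb, Aif1, Tyrobp and Cx3cr1 at 0. In mostly embryonic E16 cells Csf1r had 350 UMIs in 146 of 209 cells, and C1qa 1, C1qb 3, Aif1 1 and the other two 0. It had none in mostly adult cells of any library. In thinned other barcodes it was found in 1, 0 and 0 of 1000. The endothelial, platelet and granulocyte lists gave 1, 0 and 0 UMIs in mostly embryonic E18 cells and 0, 1 and 0 in mostly adult ones.

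**Figure D5:**
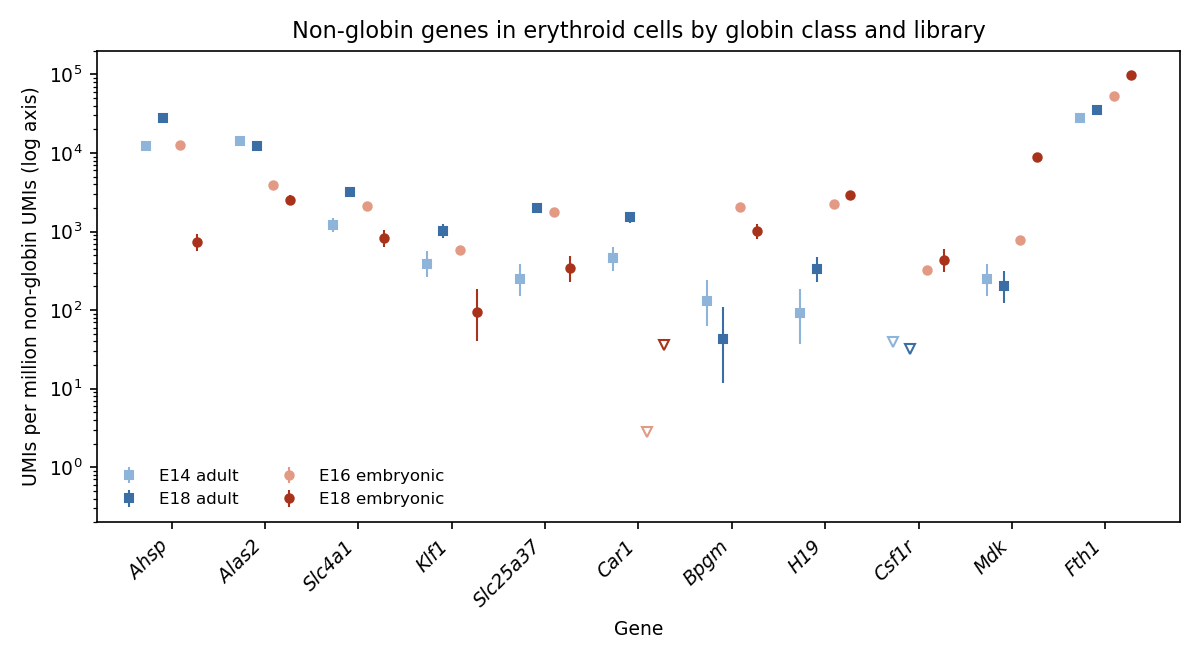
Levels of 11 genes in CPM of non-globin UMIs (y axis, log scale) in mostly adult cells of E14 and E18 (squares) and mostly embryonic cells of E16 and E18 (circles), with exact 95% Poisson intervals. Open triangles mark genes with no UMI, drawn at the level of 3 counts; Ahsp is at 733 in mostly embryonic E18 cells and at 12148 or above in the other groups.

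Mostly embryonic cells of E18 also differed from those of E16. This comparison shares the E18 cells with the preceding one, and library and label cannot be told apart in it. Of 1658 genes tested, 717 were called (43.2%), 60 higher (3.62%) and 657 lower (39.6%) in E18. The median log2 ratio was -0.79. Centred on it, 183 were higher and 221 lower. With 1081682 non-globin UMIs in E16 and 84614 in E18, low genes are measured far better in E16. The neural list had 2639 CPM in E16 and 1702 in E18, and a median of 281 and 233 genes was detected per cell after thinning to 500 non-globin UMIs.

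Erythroid lists were lower in E18 by their summed levels, which take in every measured member. Erythroid markers summed to 22060 CPM in E16 and 5058 in E18, haem genes to 12883 and 6086, membrane skeleton genes to 6691 and 2458, and erythroid regulators to 1603 and 957. The limit of 20 UMIs equals 236 CPM in E18 and 18.5 in E16, so a gene between 50 and 236 CPM could be tested only through E16, and the counts of called genes depend on that. Of 11 tested erythroid markers 9 were lower and none higher, of 12 haem genes 9, of 16 membrane skeleton genes 10 and of 8 erythroid regulators 5. The proliferation list summed to 2411 CPM (2319 to 2505) in E16 and 626 (469 to 819) in E18. With at least 80% globin it stood at 827 (759 to 900) and 540 (349 to 797), and these intervals overlap. Ahsp had 12618 CPM in E16 and 733 in E18, 17.2-fold lower. Alad had 900 against 59.1 CPM, Klf1 581 against 94.5, Slc25a37 1763 against 343, and Gata1, the master regulator of erythroid genes, 90 UMIs against 0. Alas2 was closer, with 3880 against 2553.

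Further genes named by rank were H1f2, a linker histone (599 against 23.6 CPM), Maged2 (392 against 11.8), and Cdkn3, Aqp3, a water channel, Tcea1, an elongation factor, Cenpf, Dhrs11 and Ppa1, all with no UMI in E18. Hspa1b, a heat shock gene, had 219 UMIs against 0, of which 84.9% were in 1 cell. Mt1 had 7928 against 1808 CPM.

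Higher in E18 were Mdk (8970 against 774 CPM, ratio 11.6), the stress-response genes Gadd45b (248 against 6.47) and Ddit3 (402 against 44.4), and Cited2 (1276 against 170). So were Slc3a2 and Slc38a2, which serve amino acid transport, with 1808 against 257 and 236 against 42.5. Hmox1 had 260 against 32.4, and Orai1, a calcium channel, 343 against 61.0. Fbxo30, Rsrp1, the immediate early gene Ier2 and Ifi27l2b were also among the 12 highest. Fth1 had 96875 against 52717, below 2-fold, and Ubb 10589 against 3162. H19 (2931 against 2267) and Csf1r (437 against 324) were within 2-fold of each other.

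Mostly adult cells could be compared between E14 and E18, with 34 and 37 cells. Of 613 genes tested, 165 were called (26.9%), 106 higher (17.3%) and 59 lower (9.62%) in E18, with a median of 0.14. Erythroid markers were higher in E18 for 8 of 9 tested genes, haem genes for 5 of 9 and membrane skeleton genes for 6 of 10, with none lower and medians of 1.38, 1.05 and 1.38. The limit of 20 UMIs equals 214 CPM in E18 and 261 in E14, and a gene could be tested through 1 library alone. The neural list was lower in E18, at 3810 against 8729 CPM, with 6 of its 10 tested genes lower and 1 higher, and its part in the other differences was not tested.

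Alas2 was within 2-fold, at 12231 in E18 against 14092 CPM in E14. Ahsp had 27470 against 12148, Slc4a1 3200 against 1227, Klf1 1017 against 391 and Slc25a37 2023 against 248. Tfrc, the transferrin receptor for iron uptake, had 32 UMIs in 7 of 37 cells against 0, at least 8.75-fold higher, and 56.2% of them were in 1 cell. Xpo7, a nuclear exporter of maturing erythroblasts, had 93 UMIs against 5.

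Other genes high in E18 were Tmcc2 (281 UMIs against 11), Trim58, an erythroid ubiquitin ligase (20 against 0), Pdzk1ip1 (28 against 0), Cpeb4, a translation regulator of late erythropoiesis (26 against 1), and Trak2 (48 against 4). Trim58, Pdzk1ip1 and Cpeb4 were each found in 5 or 6 of the 37 E18 cells, with 35.7% to 50% of their UMIs in 1 cell. Cenpf, Mki67 and Hmgb2 were high too, with 76.1% to 90.4% of their E18 UMIs in 1 cell. Ttr had 20 UMIs against 0, and the other barcodes of E18 held 2676 CPM of it against 0.161 in E14.

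Most of the genes with the lowest ratios were found in 1 E14 cell. Ifitm3, Gng11, Tagln2, Higd1b, Nid1, Septin4, Apoe and Gjc1 had 20 to 56 UMIs in E14, each with 100% of them in 1 cell, and Junb and Igfbp7 had 96.9% and 95.8% in 1 cell. The E14 cell with most non-globin UMIs, 12185 of 36498, held 26 of 26 Higd1b UMIs, 23 of 24 Igfbp7 UMIs and 35 UMIs of the endothelial list. Without the deepest cell of each class 86 genes were higher and 50 lower. Without cells with 1% or more neural UMIs 107 were higher and 33 lower. With at least 80% globin 39 were higher and 25 lower. Cald1 and Selenom, the remaining genes, had 73.1% and 75% of their UMIs in 1 cell.

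The 8 mostly adult E16 cells, with 16060 non-globin UMIs in all, are too few for a fit of their own. They held 14321 CPM of Alas2, against 14092 in mostly adult E14 cells, and 1121 of Car1 in 4 of 8 cells. Ahsp summed to 12266 CPM but was uneven, with 82, 62 and 32 UMIs in 3 cells and 0 to 9 in the others. Csf1r and Bpgm had no UMI in them, and neither had Hemgn or Lgals5, a gene of the mostly adult E18 class. H19, which was higher in the mostly embryonic E18 class, stood at 1619 CPM with UMIs in 7 of 8 cells. Fth1 was at 151681 CPM, with 55.8% of its UMIs in 1 cell.

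Between the libraries as a whole, differences carry the mix of classes, since E14 was mostly adult, E16 mostly embryonic and E18 divided. In E16 over E14, 550 of 1533 genes were higher (35.9%) and 130 lower (8.48%), with a median log2 ratio of 0.68. In E18 over E14, 182 of 797 were higher (22.8%) and 74 lower (9.28%), with a median of 0.31. In E18 over E16, 110 of 1790 were higher (6.15%) and 355 lower (19.8%), with a median of -0.40. Centred on these medians the counts were 286 higher and 221 lower, 144 and 120, and 207 and 156, so the surplus in 1 direction shrank in the pairs with E14 and turned round in E18 over E16. These comparisons share libraries. LOC100361913 (1621 UMIs against 0), Mt2A, Igf2, Cox6b2, Csf1r, Ctla2a and Tal1, a regulator of early blood formation, were at 0 in E14 and present in E16. Lgals5 was at 0 in E16, with 30 UMIs in E14 and 104 in E18, and Car1 had 18 UMIs in E16 and 142 in E18. Of the genes lower in E18 than E16, Maged2 had 2 against 425 UMIs and Mt2A 5 against 607.

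Within E18, genes at the top of the whole-library ratio to E16, Lgals5, Car1, Emb and Hagh, were those highest in the mostly adult class, and Ubac1 (966 against 55.6 CPM), Mpst (444 against 22.8), Bcas2, Tmcc2 and Sirt2 were further genes above E16. All compare 68 cells with 217, of which 37 and 8 were mostly adult.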

How the data were processed

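Per the labels, a 10x droplet 3′ kit (version 3.1) was used, and 1 library was deposited per label. The deposited matrices hold raw UMI counts per gene (29772 genes) and barcode, not normalized. Cell Ranger 6.0.1 and build mRatBN7.2 are named in the submitters' processing notes. Members, gene lists (177 symbols, 3 of them not found) and comparisons were chosen with earlier results of these data known, and the division into classes for non-globin genes after the shares were seen. No doublets were called and no ambient RNA was removed. UMIs were summed over cells and divided by non-globin UMIs (CPM, per 1000000). Intervals are exact Poisson, Clopper-Pearson or conditional binomial at 95% and cover counting error only. Genes named by rank are the 12 highest and 12 lowest log2 ratios among tested non-globin, non-mitochondrial genes, and some of them are not reported here. Thinning drew 500 UMIs per cell without replacement, with 0 to 11 cells per group too shallow. Scripts were tested on simulated data. Promoter windows were matched by symbol to RefSeq's GRCr8 table, where 6 of the 6 leading globin genes were found. Python 3.11.15, numpy 2.4.6, scipy 1.17.1 and pandas 2.3.3 were used.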

Additional observations from a re-analysis of the deposited data

Results flagged for a closer look

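Haemoglobin UMIs were also present in barcodes outside the erythroid cells, which the comparisons above use only as background. They numbered 47129 in E14, 235170 in E16 and 52534 in E18, out of 62740631, 80974234 and 73727823 UMIs. With the few barcodes of 10% or more haemoglobin left out (4, 13 and 7), haemoglobin made up 130, 689 and 279 CPM of non-globin UMIs in the rest.

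In E16, 92.8% of their beta-like UMIs were embryonic, against 94.3% in the erythroid cells of that library. In E18 it was 82.6% against 40.4% of beta-like UMIs in erythroid cells. In E14 it was 50.1% against 0.641% of beta-like UMIs in erythroid cells. There 12792 of 12931 Hbe1 UMIs outside erythroid cells (98.9%) lay in 2 barcodes of 99415 and 58889 UMIs, with 10.3% and 17.4% haemoglobin. These 2 barcodes held more Hbe1 (6529 and 6263 UMIs) than all 35 erythroid cells of E14 together (1642). In E18 the 2 barcodes with most Hbe1 held 65.0% of that outside erythroid cells, and in E16 32.1%.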

How the results depend on the processing

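Of 225 summary values recomputed under other settings 167 stayed within the 95% interval of the reported value (for gene counts, within 1.5 times it) and 58 moved further. Of 24 values of Ahsp, Fth1 and Mdk in zeta bands 15 moved beyond that interval and 9 did not. Of 300 single-gene values 299 kept their call, Cenpf being 0 in both E18 classes at 80% globin or more. Most of these genes were chosen for the most extreme ratios of the same comparison. The floor of 200 CPM and the limit of 250 UMIs could not change a single-gene value, so the count says little about the calls. The cause of each move was not tested. With at least 80% globin required, erythroid cells were 2.50% of E16 and 0.663% of E18 barcodes, the mostly embryonic share 0% in E14 and 30.4% in E18, and the zeta share 0.00610%, 35.9% and 2.58% in label order. The erythroid list then stood at 44684, 25760 and 33731 CPM, 136 genes differed between E18 and E14, 28 were higher in E18 than E16 mostly embryonic cells, and 39 were higher and 25 lower in E18 than E14 mostly adult cells. The proliferation list in the 4 zeta bands of E16, a result added after seeing the data, was then 639, 680, 579 and 2401 CPM, and it was 827 over all mostly embryonic E16 and 1725 over mostly adult E18 cells. With 25% required, the erythroid list was 19125 in E16 and 24280 in E18, the zeta share in E18 3.44%, and, in class comparisons added after seeing the data, 199 genes were higher in the mostly embryonic E18 class and 386 lower in E18 than E16. As a mean over cells, the zeta share was 0.183%, 38.4% and 4.08%, and the list 32756 in E14 and 23862 in E16. As CPM of all UMIs the list was 3666, 3890 and 4402, without mitochondrial UMIs 32622, 23136 and 31326, and with the profile of other barcodes subtracted 43266, 28134 and 35009. Cells thinned to 500 UMIs in all had medians of 38, 62 and 60 non-globin genes. Without the deepest cell of each library the list was 34387 in E14 and the zeta share 40.4% in E16 and 3.40% in E18. A floor of 20 CPM gave 1178 (E16 and E14), 881 (E18 and E16) and 2843 genes (erythroid cells against others), against 680, 465 and 1735, and a floor of 200 gave 288, 133 and 483, with 155 genes lower in E18 than E16 mostly embryonic cells. Centring on the median, chosen after seeing the data, gave 189 genes higher in the mostly embryonic E18 class, 183 higher and 221 lower in E18 than E16, and 707 genes differing between erythroid cells and other barcodes. Without cells of 1% or more neural UMIs, 33 genes were lower in E18 than E14 mostly adult cells and the proliferation list was 2171 CPM in the zeta band from 40% to 60%. The least UMIs of a barcode were 500 and the highest neural share 2.38%, so limits of 250 UMIs and 5% neural UMIs removed none. Values under these limits could not move, and they are counted among those that stayed. No paired analysis was possible because each label has 1 library.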
